A study of Homo sapiens with 6 samples.

Results

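The genes described here are the ERK feedback phosphatases and Sprouty genes, a set of 10 listed by name: the MAP kinase phosphatases DUSP4, DUSP5 and DUSP6, the Sprouty genes SPRY1, SPRY2 and SPRY4, the Sprouty-related genes SPRED1 and SPRED2, and the early response genes IER3 and PHLDA1. All 10 were found by symbol among the 23354 genes of the deposited read-count table, and all 10 were among the 13466 genes abundant enough to be tested. The cells were LNCaP, an established human prostate cancer line that responds to androgen. Every library came from cells given dihydrotestosterone (DHT), a potent androgen, at 1 nM for 48 h. In 3 libraries (DHT+WBM) the cells also received an extract of white button mushroom at 3 µL/mL, and in 3 (DHT) they did not. The labels name no vehicle for the DHT group. Whether the replicates came from different cultures is not stated, so every p-value here speaks only to variation among these 6 libraries, part or all of which may be technical. The question was whether the extract changed transcription under the same androgen dose.

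Growth factor receptors activate RAS, which starts the RAF, MEK and ERK kinase relay, and active ERK switches on a set of early and delayed genes. Several of those genes encode brakes on the same relay. DUSP proteins remove phosphate from ERK, Sprouty proteins damp signalling between the receptor and RAF, and SPRED proteins bring the RAS inhibitor neurofibromin to the membrane. In prostate cancer cells this relay runs beside androgen signalling, and the RNA level of its feedback genes is often used as a readout of ERK output. These transcripts also answer to other signals, and neither ERK protein nor its phosphorylation was measured here.

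The libraries held 19127357 to 21490953 counts, with 16511 to 16720 genes detected in each. All 10 luminal prostate markers checked were at 5 CPM (read counts put on a common library size with TMM factors) or more. Their sum was 6080 to 6350 CPM in DHT and 4670 to 4870 CPM in DHT+WBM, mainly through lower KLK3. KLK2, TMPRSS2 and HOXB13 were also lower and KRT8 was higher. FOLH1, STEAP2, KRT18, EPCAM and CDH1 did not pass the edgeR test at an adjusted p under 0.05. Of the markers of other cell types, the 3 basal ones summed to at most 0.287 CPM, the 5 fibroblast and muscle ones to 11.7 to 13.9 CPM in DHT and 12.6 to 13.6 CPM in DHT+WBM, and the 3 endothelial ones to 2.37 to 3.17 and 2.16 to 2.29 CPM. KRT5, COL1A2 and CDH5 had no count. The 4 leukocyte markers summed to 23.8 to 26.0 CPM in DHT and 84.0 to 92.4 CPM in DHT+WBM, mainly through CD68 (22.96 to 84.51 CPM). LYZ rose as well, from 2.10 to 2.86 CPM. The defining genes PTPRC and CD3E stayed at or below 0.0334 CPM in both group means. The part of these marker shifts in the results was not tested. In bulk RNA, fewer cells with a transcript and less of it per cell cannot be told apart.

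The 10 genes did not move as a block. IER3, DUSP5, DUSP6 and DUSP4 rose with the extract, PHLDA1 and SPRY1 fell, and SPRY2, SPRY4, SPRED1 and SPRED2 did not pass the test. By edgeR's quasi-likelihood test at an adjusted p under 0.05, 6 of the 10 were called, 4 higher and 2 lower. Over all tested genes the test called 58.2%, with 29.2% higher and 29.0% lower, so the share of called genes in the set was near the background. With a change of at least 1.5-fold required as well, 3 were higher (IER3, DUSP6 and DUSP5) and 1 was lower (PHLDA1), against 8.08% and 6.46% of all tested genes. PHLDA1 passed narrowly, at 1.51-fold, and fell short of 1.5-fold with upper-quartile factors or library totals alone. It also fell short without DHT replicate 2 (log2 fold change -0.577) and without DHT+WBM replicate 1 (-0.578). DUSP6 fell short without DHT replicate 1 (0.536). IER3 alone passed 2-fold, against 5.70% of all tested genes. The median log2 fold change (log2 change) of the 10, DHT+WBM over DHT, was 0.07, beside 0 for all tested genes. In 7 of the 10, the 6 called ones and SPRED2, the libraries of the groups did not overlap, as for 62.2% of all tested genes.

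**Figure D1:**
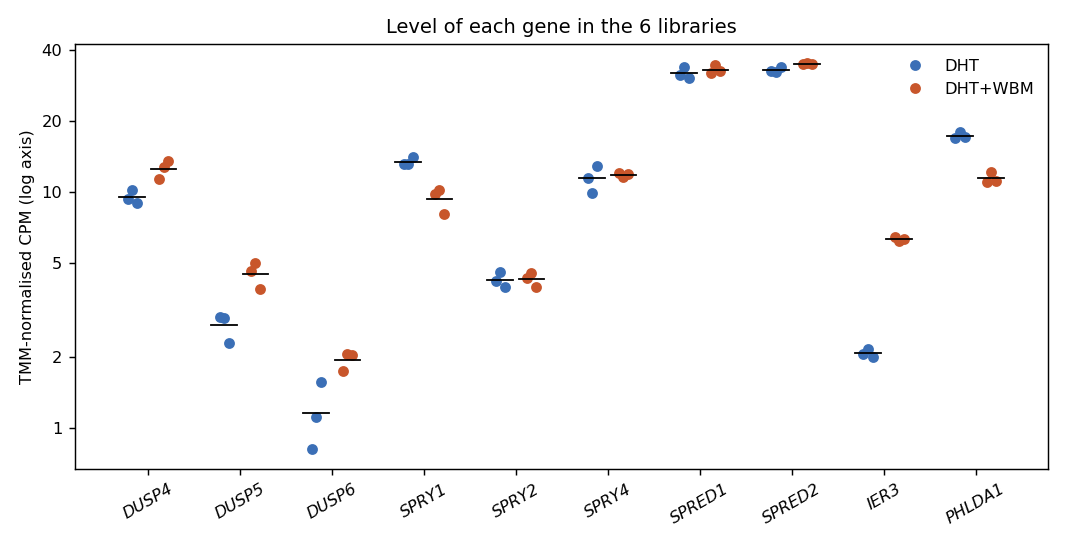
TMM-normalised CPM (log axis) of the 10 genes in each library, with 3 points per group (blue DHT, orange DHT+WBM) and a bar at the group mean. The groups are apart for the 3 DUSP genes, SPRY1, SPRED2, IER3 and PHLDA1, and overlap for SPRY2, SPRY4 and SPRED1.

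The 3 phosphatase genes all rose. DUSP6 encodes a cytoplasmic phosphatase that acts mainly on ERK, while DUSP4 and DUSP5 encode nuclear enzymes. DUSP6 (chromosome 12, 89741837 to 89746296, minus strand, hg19) was the rarest of the 10, and 9.97% of tested genes had a lower mean CPM. It stood at 0.812, 1.11 and 1.56 CPM in DHT replicates 1 to 3 and at 1.75, 2.05 and 2.03 CPM in DHT+WBM replicates 1 to 3, from 17 to 44 counts per library. Every DHT+WBM library lay above every DHT library, but the DHT libraries were widely spread. The log2 change was 0.74 ± 0.23 (SE, edgeR adjusted p = 0.00526), a 1.68-fold rise. This call rested on DHT replicate 1, the lowest library: without it the log2 change was 0.54 (edgeR adjusted p = 0.0579). At 17 counts, counting error alone amounts to 24.3% of the value.

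DUSP5 (chromosome 10, 112257625 to 112271302, plus strand) read 2.96, 2.92 and 2.29 CPM in DHT and 4.63, 4.98 and 3.87 CPM in DHT+WBM. Replicate 3 was the lowest library of each group, and the groups did not overlap. The log2 change was 0.71 ± 0.15 (edgeR adjusted p = 0.000105), close in size to that of DUSP6 but with a narrower error. The pseudogene DUSP5P1 was counted separately at 8 to 16 counts per library, against 47 to 97 for DUSP5. Reads shared by the pair cannot be traced in these counts. DUSP4 (chromosome 8, 29190579 to 29208267, minus strand) was more abundant and changed less. It read 9.36, 10.2 and 8.97 CPM in DHT and 11.3, 12.7 and 13.5 CPM in DHT+WBM, a log2 change of 0.40 ± 0.09 (edgeR adjusted p = 0.000254), or 1.32-fold.

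Of the Sprouty genes, SPRY1 fell while SPRY2 and SPRY4 did not pass the test. SPRY1 (chromosome 4, 124317950 to 124324915, plus strand) read 13.1, 13.1 and 14.1 CPM in DHT and 9.80, 10.2 and 8.10 CPM in DHT+WBM. The DHT libraries lay close together and all above the DHT+WBM libraries. The log2 change was -0.52 ± 0.09 (edgeR adjusted p = 5.26e-06), which is 1.44-fold lower. SPRY2 (chromosome 13, 80910112 to 80915086, minus strand) read 4.2, 4.58 and 3.95 CPM in DHT and 4.34, 4.52 and 3.96 CPM in DHT+WBM. The groups covered almost the same range. Its log2 change was 0.01 with a 95% confidence interval of -0.26 to 0.27 (edgeR adjusted p = 0.965), so shifts up to about the upper bound in either direction are within the error. SPRY4 (chromosome 5, 141689992 to 141704620, minus strand) read 11.5, 9.87 and 12.9 CPM in DHT and 12, 11.6 and 11.9 CPM in DHT+WBM. All its DHT+WBM values fell inside the DHT range, and the log2 change was 0.05 with an interval of -0.13 to 0.24 (edgeR adjusted p = 0.63).

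**Figure D2:**
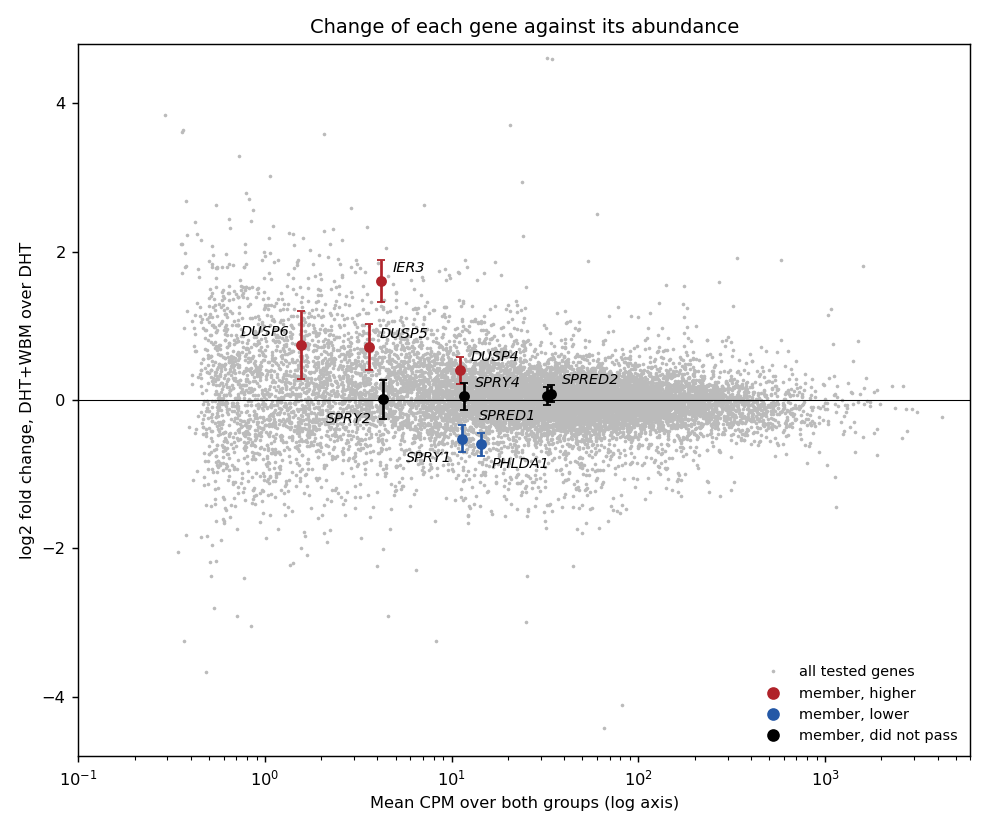
Log2 change (DHT+WBM over DHT) of all tested genes (grey) and the 10 genes (coloured by call, bars are 95% confidence intervals) against mean CPM over both groups (log axis). IER3 stands highest of the 10 at 1.61, DUSP6 has the widest interval, and SPRED1 and SPRED2, the most abundant, lie near 0.

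The SPRED genes were the most abundant of the set in CPM and had intervals close to 0. SPRED1 (chromosome 15, 38545052 to 38649450, plus strand) read 31.2, 33.9 and 30.4 CPM in DHT and 31.8, 34.6 and 32.7 CPM in DHT+WBM, a log2 change of 0.05 with an interval of -0.07 to 0.17 (edgeR adjusted p = 0.449). SPRED2 (chromosome 2, 65537985 to 65659656, minus strand) read 32.7, 32.1 and 33.8 CPM in DHT and 34.9, 35.1 and 34.9 CPM in DHT+WBM. The SPRED2 groups did not overlap, yet its log2 change of 0.09, with an interval of -0.03 to 0.20, did not pass (edgeR adjusted p = 0.175). Scaling by library totals alone gave SPRED2 a log2 change of 0.14 (edgeR adjusted p = 0.0376).

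IER3 changed most. It encodes a short-lived protein that binds and is phosphorylated by ERK, and it is also a target of NF-kB. IER3 (chromosome 6, 30710976 to 30712327, minus strand) read 2.05, 2.16 and 2.0 CPM in DHT and 6.43, 6.21 and 6.31 CPM in DHT+WBM. The libraries within each group nearly coincided. The log2 change was 1.61 ± 0.14 (edgeR adjusted p = 1.32e-12), a 3.04-fold rise, and 98.7% of tested genes changed by less in either direction. PHLDA1, which encodes a protein with a pleckstrin homology-like domain tied to growth and cell death control, moved the other way. PHLDA1 (chromosome 12, 76419227 to 76425556, minus strand) read 17, 17.9 and 17.1 CPM in DHT and 11, 12.2 and 11.1 CPM in DHT+WBM, with no overlap. Its log2 change was -0.60 ± 0.08 (edgeR adjusted p = 2.99e-08), which is 1.51-fold lower.

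Promoter sequence is shown for 3 of the genes that changed, DUSP6 as a gene that rose and SPRY1 and PHLDA1 as the genes that fell. Sequences come from a RefSeq table on GRCh38.p14, a different build from the hg19 of the counts. It held 11 windows for 7 of the 10 genes, each with 250 bases before and 50 after an annotated start. DUSP4, DUSP5 and IER3 had no window, so their promoters were not searched for any motif. Only the bases before the start are printed, 5′ to 3′ on the gene's strand. Capitals mark any match, on either strand, to one of 8 motifs of factors tied to ERK, androgen, inflammatory or aryl hydrocarbon signalling.
DUSP6 (GRCh38.p14, chr12:89352502-89352751, minus strand): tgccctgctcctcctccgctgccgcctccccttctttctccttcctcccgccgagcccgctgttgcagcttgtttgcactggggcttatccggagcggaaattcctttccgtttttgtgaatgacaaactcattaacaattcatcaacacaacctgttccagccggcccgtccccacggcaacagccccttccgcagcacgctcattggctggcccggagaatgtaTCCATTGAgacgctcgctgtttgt
SPRY1 (GRCh38.p14, chr4:123396545-123396794, plus strand): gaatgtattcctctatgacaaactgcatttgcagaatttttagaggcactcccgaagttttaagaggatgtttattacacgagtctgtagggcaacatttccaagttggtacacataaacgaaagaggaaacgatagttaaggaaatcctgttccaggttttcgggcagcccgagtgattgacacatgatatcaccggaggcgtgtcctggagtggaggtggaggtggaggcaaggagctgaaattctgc
PHLDA1 (GRCh38.p14, chr12:76031777-76032026, minus strand): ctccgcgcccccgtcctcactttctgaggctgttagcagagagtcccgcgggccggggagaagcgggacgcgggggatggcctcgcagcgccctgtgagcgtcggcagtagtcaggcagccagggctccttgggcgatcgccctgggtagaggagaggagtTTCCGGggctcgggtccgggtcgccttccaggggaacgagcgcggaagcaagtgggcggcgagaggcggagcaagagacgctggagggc
The motifs included the octamers TGAATGAA, TGAATGGA, TCAATGAA and TCAATGGA bound by Capicua, a repressor that ERK inactivates. Searched as well were the extended ETS site CCGGAA, the AP-1-like pattern TGANTCA with any base at N and the cyclic AMP response element TGACGTCA. The aryl hydrocarbon response element was searched only as TTGCGTG. The full androgen response element, the serum response element and the NF-kB site are given by name alone. Shorter forms, among them the ETS core within CCGGAA, were not counted as matches. DUSP6 held 2 Capicua octamers on the reverse strand, at -24 to -17 and at 2 to 9 counted from the start, of which the first is in capitals above. Such an octamer occurred in 1 of the 11 windows and in 3.77% of the 35116 windows of the whole table. PHLDA1 held the CCGGAA site on the reverse strand at -89 to -84. The upstream SPRY1 window printed here held none of the motifs in the forms searched. CCGGAA was in 3 of the 11 windows, of PHLDA1, SPRY1 (its other start) and SPRY2, and in 17.2% of all windows. The AP-1-like pattern was in 1 window, of SPRED2, and in 7.71% of all windows. In the forms searched, the other motifs matched 0 of the 11 windows. Of all windows, 11.3% held an NF-kB site, 1.85% a cyclic AMP response element and 1.29% a serum response element. The aryl hydrocarbon response element was in 1.16% and the full androgen response element in 0.00285%. A match describes letters in this window and not binding.

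The order of the genes changed between the groups. Levels between genes were compared as CPM divided by the deposited gene length in kb (CPM per kb). In DHT, SPRED2 came first at 7.08 ± 0.19 (SD, n = 3), followed by SPRY1 at 4.43 ± 0.20 and SPRED1 at 4.39 ± 0.25, whose libraries overlapped. PHLDA1 at 2.93 ± 0.084, SPRY4 at 2.29 ± 0.30 and IER3 at 1.67 ± 0.068 came next, each apart from its neighbours. SPRY2 at 1.4 ± 0.11 and DUSP4 at 1.30 ± 0.083 overlapped, DUSP5 stood at 1.08 ± 0.15 and DUSP6 was last at 0.412 ± 0.13. In DHT+WBM, IER3 ranked 2 at 5.10 ± 0.089, behind SPRED2 at 7.53 ± 0.024 and ahead of SPRED1 at 4.56 ± 0.20. SPRY1 followed at 3.09 ± 0.37 and SPRY4 at 2.37 ± 0.041. PHLDA1 at 1.93 ± 0.12 overlapped with DUSP5 at 1.78 ± 0.23, which overlapped with DUSP4 at 1.71 ± 0.15, ahead of SPRY2 at 1.41 ± 0.094. DUSP6 stayed last at 0.690 ± 0.059.

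**Figure D3:**
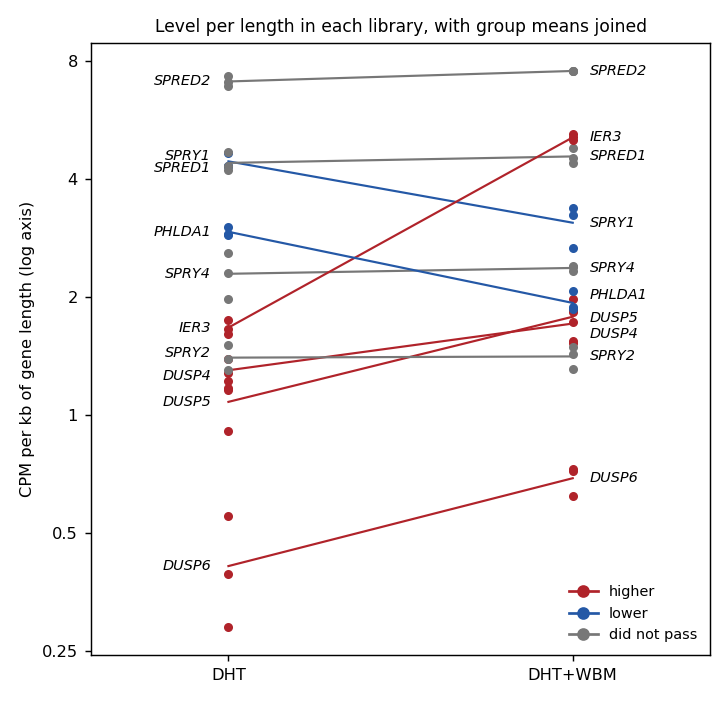
CPM per kb (log axis) of each gene in the 3 libraries of each group (points), with lines joining the group means, red for genes that rose, blue for those that fell and grey for those that did not pass. IER3 moves from rank 6 to rank 2, and PHLDA1 and SPRY1 move down.

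Summed over the 3 DUSP genes of the set, the level lay higher in DHT+WBM, and over its 3 Sprouty genes it lay lower. This is a description without a test and leaves out other members of both families. Of the Sprouty genes only SPRY1 had a lower mean, 4.43 in DHT and 3.09 CPM per kb in DHT+WBM. SPRY2 had 1.4 and 1.41, and SPRY4 had 2.29 and 2.37. The summed level of DUSP4, DUSP5 and DUSP6 was 2.74, 2.94 and 2.69 CPM per kb in DHT and 4.0, 4.43 and 4.10 in DHT+WBM. DUSP6 supplied 14.8 ± 5.21% of that sum in DHT and 16.5 ± 0.991% in DHT+WBM, and DUSP4 supplied 46.5 ± 0.841% and 40.9 ± 3.62% (SD, n = 3). The summed level of SPRY1, SPRY2 and SPRY4 was 7.99, 7.80 and 8.54 in DHT and 7.06, 7.18 and 6.37 in DHT+WBM. SPRY1 made up 54.6 ± 0.678% of the Sprouty sum in DHT and 44.8 ± 2.58% in DHT+WBM, and no library of the second group reached the first.

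**Figure D4:**
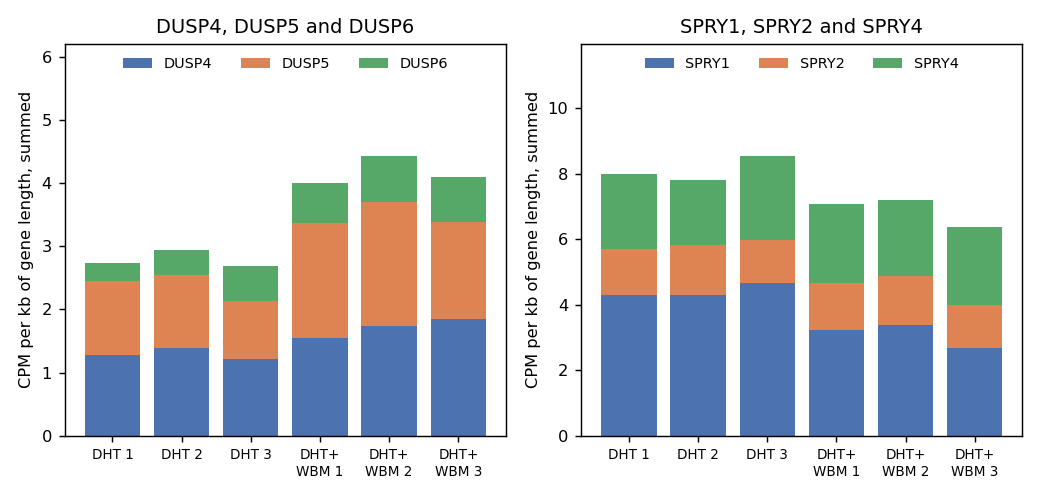
Stacked level per length (CPM per kb) of the 3 DUSP genes (left) and the 3 Sprouty genes (right) in each library. The DUSP stack is higher in all 3 DHT+WBM libraries, at 4.0 to 4.43 against 2.69 to 2.94, and the Sprouty stack is lower, at 6.37 to 7.18 against 7.80 to 8.54.

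The other MAP kinase phosphatases were also divided. Of 13 listed genes 12 were tested, of which 6 were higher and 3 lower, where 29.2% and 29.0% of all tested genes were, with a median log2 change of 0.20. DUSP10, which encodes a phosphatase of the stress kinases p38 and JNK, rose from 28.2 ± 0.95 to 49.2 ± 1.65 CPM, a log2 change of 0.80 ± 0.06 (edgeR adjusted p = 1.69e-15). PTPRR, a tyrosine phosphatase gene whose product binds ERK, rose with 0.73, and DUSP1, an early response phosphatase gene, with 0.37. DUSP9 fell with -0.69, the catalytically dead relative STYX with -0.34 and DUSP7 with -0.31. DUSP7 and DUSP9 belong with DUSP6 to the cytoplasmic ERK phosphatases, so within that trio DUSP6 was the gene that rose. The DUSP6 call was lost without DHT replicate 1 (edgeR adjusted p = 0.0579), and with DESeq2 its adjusted p was 0.0398.

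Other inhibitors of RAS and ERK signalling numbered 14 tested of 15, with 5 higher, 3 lower and a median log2 change of 0.10. These 8 of 14 called lie near the 58.2% of all tested genes. IL17RD, a membrane antagonist of fibroblast growth factor signalling, rose from 10.7 ± 0.21 to 16.7 ± 1.04 CPM, a log2 change of 0.64 ± 0.08 (edgeR adjusted p = 1.19e-08). ERRFI1, an inhibitor of the EGF receptor, rose with 0.25 and NF1, the neurofibromin gene, with 0.17. RGS2, a regulator of G protein signalling, fell with -0.68, the receptor inhibitor gene LRIG1 with -0.35 and the RAS GTPase-activating protein gene RASA1 with -0.20. SPRED3, the remaining SPRED relative, had a log2 change of 0.46 (edgeR adjusted p = 0.126). SPRY3 is listed at 0 in every library; its deposited span runs along most of the X chromosome, so this 0 is not read as a limit on its expression.

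Upstream of the feedback genes, both receptor and cascade transcripts were measured. Of 16 receptor tyrosine kinase genes, 12 were tested, 4 of them higher and 3 lower, again near the 58.2% called among all tested genes, with a median log2 change of 0.05. At 1.5-fold, 1 was higher and 2 were lower, against 8.08% and 6.46% of all tested genes. The count of 4 became 2 without DHT+WBM replicate 2, and 2 with DESeq2. MET, the hepatocyte growth factor receptor gene, rose from 4.48 ± 0.67 to 6.85 ± 0.20 CPM (log2 change 0.62), ERBB2 rose with 0.15 and FGFR4 with 0.34. The insulin-like growth factor receptor gene IGF1R fell from 121 ± 7.74 to 79.2 ± 2.67 CPM (log2 change -0.61), FGFR3 fell with -0.61 (12.6 to 8.29 CPM) and ERBB3 with -0.25. In the cascade and its adaptors, 23 of 23 genes were tested, 7 were higher and 3 lower, and the median was 0.04. These 10 of 23 called, with 0 at 1.5-fold, stand beside 58.2% and 14.5% of all tested genes. With upper-quartile factors or library totals alone the split was 9 higher and 2 lower. MAPK3, the ERK1 gene, rose with a log2 change of 0.46 ± 0.05 (edgeR adjusted p = 7.21e-10), and the RAS activator genes SOS1 and SOS2 with 0.34 and 0.24. RPS6KA3, a kinase gene downstream of ERK, and the adaptor gene SHC1 fell, each with -0.16. HRAS fell with -0.13, just inside the threshold (edgeR adjusted p = 0.0498). With DESeq2 or limma-voom the number of cascade genes lower was 2.

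Downstream, the list of other ERK-induced transcripts, which also holds relatives of IER3 and PHLDA1, had 18 of 24 genes tested. Of these, 10 were higher and 5 lower, where 29.2% and 29.0% of all tested genes were, with a median log2 change of 0.26. Like the other lists, this list was chosen with earlier results of these data known. The number lower was 3 without DHT replicate 1 or without DHT+WBM replicate 3, and with library totals alone the split was 11 higher and 3 lower. The ETS factor genes ETV5 and ETV4 changed most among those that rose. ETV5 went from 3.31 ± 0.11 to 10.5 ± 0.31 CPM, a log2 change of 1.66 ± 0.11 (edgeR adjusted p = 9.26e-16), and ETV4 from 0.633 ± 0.18 to 2.21 ± 0.35 CPM, with 1.78 ± 0.25. IER5 rose with 0.80. The transcription factor genes KLF6 and MYC fell with -0.49 and -0.27 and MCL1, an anti-apoptotic gene, with -0.12. The paralogs PHLDA2 and PHLDA3, named after their values were seen, rose with 0.44 and 0.43, whereas PHLDA1 fell. CCND1, a cyclin gene often read as an ERK output and also named after its value was seen, had a log2 change of -0.01 at 454 CPM (edgeR adjusted p = 0.917).

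**Figure D5:**
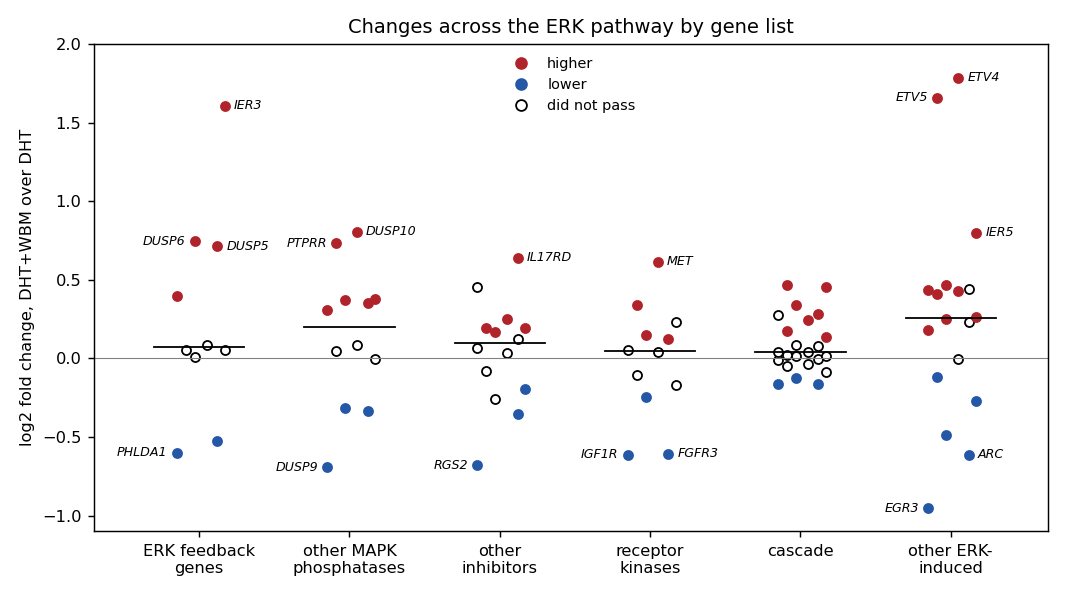
Log2 change (DHT+WBM over DHT) of the tested genes in the 10-gene set and in 5 lists of the ERK pathway, filled red or blue where called and open where not, with a bar at each median. Sideways spread only separates points, and called genes beyond 1.5-fold are named. The cascade genes lie between -0.16 and 0.46, while IER3, ETV4 and ETV5 lie above 1.5.

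No gene of the deposited table overlapped any of the 10. Within 200000 bases, 11 nearest tested neighbours were found, of which 8 were called, 5 higher and 3 lower, beside 58.2% called among all tested genes. Next to IER3, FLOT1, whose span lies 523 bases away, rose with a log2 change of 0.10 and DDR1 with 0.14, both far smaller than the 1.61 of IER3. Both neighbours of DUSP5 moved against it, SMC3 with -0.33 and SMNDC1 with -0.21. KIF13B beside DUSP4 rose with 0.32, POC1B beside DUSP6 with 0.19 and ACTR2 beside SPRED2 with 0.14, while NAP1L1 beside PHLDA1 fell with -0.21. Among 10737 genes with a mean of at least 5 CPM, those closest to DUSP6 in their log2 CPM over the 6 libraries, centred on the DHT mean, were MUM1L1, SH3BGR and FAM89A, at Euclidean distances of 0.39, 0.41 and 0.42, where the median over these genes was 1.45. MUM1L1 went from 4.36 ± 0.58 to 7.18 ± 0.080 CPM, a log2 change of 0.72. This likeness is a description over 6 libraries that the group difference dominates.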

How the data were processed

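The values are read counts as the authors deposited them, integers without scaling, in a table that also gives gene positions and lengths. Per the submitters' processing notes, the build was hg19 and the tools were edgeR 3.28.1, HTSeq 0.6.0, STAR 2.6.0 and bcl2fastq 2.18.0.12, named in no order. The annotation, the handling of strand and any filtering were not given in the sources used here.

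Columns were matched to libraries by the code in each title. The model was fitted with edgeR 4.0.16 under R 4.3.3: filterByExpr (minimum count 10, minimum total 15), TMM factors, a two-sided quasi-likelihood F-test of DHT+WBM against DHT over all 13466 kept genes, and Benjamini-Hochberg adjustment over all of them, with calls at an adjusted p under 0.05. The fit was run on simulated counts in which few genes changed, whereas 58.2% were called here. There it called 0.0835% of 13175 unchanged genes and 90% of 50 genes with a log2 change of 1 in either direction. At a log2 change of 0.5 it called 85.7% of 49 genes, and at 0.25 it called 63.3% of 49. The simulated scatter followed the trend fitted over abundance, without differences between genes of like abundance. Levels are mean ± SD over 3 libraries. The 10 genes, the 5 pathway lists and the naming rule were chosen with earlier results of these data known. Named were the 10 genes, up to 3 called genes per list and direction by smallest adjusted p, called neighbours within 200000 bases, and the 3 genes nearest DUSP6 in profile. Alternatives were other scalings and filters, DESeq2 1.42.0, voom in limma 3.58.1, the replicate block, stricter thresholds and leaving out each library.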

Additional observations from a re-analysis of the deposited data

How the results depend on the processing

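Over the 15 alternatives other than the 2-fold minimum, 3 to 5 of the 10 genes were higher and 2 were lower, and IER3, DUSP4, DUSP5, SPRY1 and PHLDA1 were called in the same direction in each of them. With a minimum of 2-fold, 1 of the 10 was higher and 0 lower, the calls of DUSP4 (0.40), DUSP5 (0.71), DUSP6 (0.74), SPRY1 (-0.52) and PHLDA1 (-0.60) were lost by construction, and over all genes 440 were higher and 328 lower. At that minimum the counts were 0 in both directions for receptor kinases, the cascade, other inhibitors and other phosphatases, and 2 higher and 0 lower for other ERK-induced transcripts. Receptor kinases had 2 higher with DESeq2 and 2 at an adjusted p under 0.01, and 2 to 5 when each library was left out. Other ERK-induced transcripts had 3 lower with library totals only, 3 with DESeq2 and 3 at an adjusted p under 0.01, and 3 to 5 with a library left out. Leaving out each library gave log2 fold changes of 0.54 to 1.02 for DUSP6 (edgeR adjusted p from 0.000891 to 0.0579), -0.043 to 0.063 for SPRY2 and -0.04 to 0.15 for SPRY4. SPRY2 was also -0.004 with no low-count filter, and SPRED2 passed with library totals only, at 0.14. Apart from the thresholds and the left-out libraries, the cause was not tested. The scalings put the median log2 fold change of all tested genes between 0.001 and 0.049.

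With the replicate number as a block, 4 of the 10 genes were higher and 2 lower, and 4079 and 4030 genes overall. Deviations of same-numbered libraries from their group means correlated at 0.05, 0.037 and 0.019. DHT replicates 2 and 3 each correlated best with another number. The labels do not say whether same-numbered libraries share a culture or batch, and correlations this small cannot decide it. Depth limits DUSP6 most, at 17 to 44 counts per library.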
